A study of Rattus norvegicus with 9 samples.

Results

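Myo16, Ky, Sypl2, Crhr2 and Piwil2 are 5 genes that were picked from a read count table of 17327 rows because their levels were higher with IGF1 than with phenylephrine or vehicle. Each symbol has 1 row, and all 5 genes passed the filter on low counts that kept 11873 genes. The cells were neonatal rat ventricular myocytes, heart muscle cells taken from newborn rats and kept in culture. They received 10 nM IGF1, 50 µM phenylephrine or vehicle for 48 hours, with 3 samples in each group. Each library held 31274396 to 48505265 counted reads. The choice rested on the differences of IGF1 from phenylephrine and from vehicle, so these are given as descriptions, without a test. The contrast of phenylephrine with vehicle was tested. It is not independent of the choice, since the same phenylephrine and vehicle samples entered it and genes picked for a wide gap between IGF1 and phenylephrine tend to be low with phenylephrine.

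IGF1 is a growth factor whose receptor is a tyrosine kinase that acts through PI3K, AKT and ERK, and it is known for growth of heart muscle cells of the physiological kind. Phenylephrine activates alpha1-adrenergic receptors, which signal through Gq and calcium and drive a growth response with fetal gene expression. The 5 genes do not form a known pathway. Ky encodes a transglutaminase-like protein of the muscle Z-disc that binds filamin C in mice, and its loss in mice impairs the growth of overloaded muscle. Sypl2 encodes mitsugumin 29, a membrane protein of the skeletal muscle triad, where the transverse tubule meets the sarcoplasmic reticulum. Myo16 encodes an unconventional myosin that is best known in neurons, where it links PI3K to the WAVE complex of actin assembly. Crhr2 encodes a Gs-coupled receptor for urocortins that is known in the heart, and Piwil2 encodes a PIWI protein that works with piRNAs in the germ line. The label of muscle genes therefore fits Ky and Sypl2 by what is known of them, and Myo16 and Piwil2 are known mainly from other tissues.

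The markers of the labelled cell type were present: all 13 cardiomyocyte markers were tested, with a summed level of 59260 to 82180 CPM with IGF1, 77470 to 78600 CPM with phenylephrine and 52450 to 56490 CPM with vehicle. CPM is the read count relative to the TMM-normalized library size, and since it is not divided by length it is compared here only within a gene. In bulk RNA, fewer cells of a type and less RNA per cell cannot be told apart. Regulators of the skeletal muscle lineage were at or near 0, with no read of Pax7 or Myf5 in any sample, 5, 4 and 1 reads of Myod1 and 9, 4 and 8 reads of Myog over the IGF1, phenylephrine and vehicle samples. Contractile genes on the same marker list were measured, with 80 to 183 reads of Mylpf and 44 to 160 reads of Myh2 per sample. Among the IGF1 libraries, replicate 1 differed from the rest. Of the 390 genes at least 2-fold higher with phenylephrine than with vehicle, 88.5% were higher in IGF1 replicate 1 than in the mean of the other IGF1 samples, and of the 566 genes at least 2-fold lower with phenylephrine, 20.0% were, against 48.3% of all genes. Across the 11873 genes, Pearson's r between these quantities was 0.489, a description over genes that share the same libraries. Results of the 5 genes that rest on this library are given with and without it, and those of other genes only in part.

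The members parted into 3 patterns. Myo16, Ky and Piwil2 were highest with IGF1, between with vehicle and lowest with phenylephrine. Crhr2 was high with IGF1 alone, and its phenylephrine and vehicle samples overlapped. Sypl2 was lowest with vehicle, and its place with IGF1 depended on IGF1 replicate 1. For Myo16, Ky, Crhr2 and Piwil2 every IGF1 sample lay above all 6 other samples, a separation that 15.2% of all genes showed. Both mean differences of IGF1 were above 0 for all 5 genes and for 31.3% of all genes, and both were at least 2-fold for Myo16, Ky and Crhr2 and for 1.65% of all genes. By the smaller of the log2 differences of IGF1 from phenylephrine and from vehicle, Myo16 ranked 2 of 11873 genes, Ky 28, Crhr2 36, Piwil2 412 and Sypl2 958. Without IGF1 replicate 1 the ranks among 12030 genes were 2 for Myo16, 23 for Ky, 41 for Crhr2, 342 for Piwil2 and 11374 for Sypl2. These ranks describe the choice and support nothing. No threshold was stated in it.

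**Figure D1:**
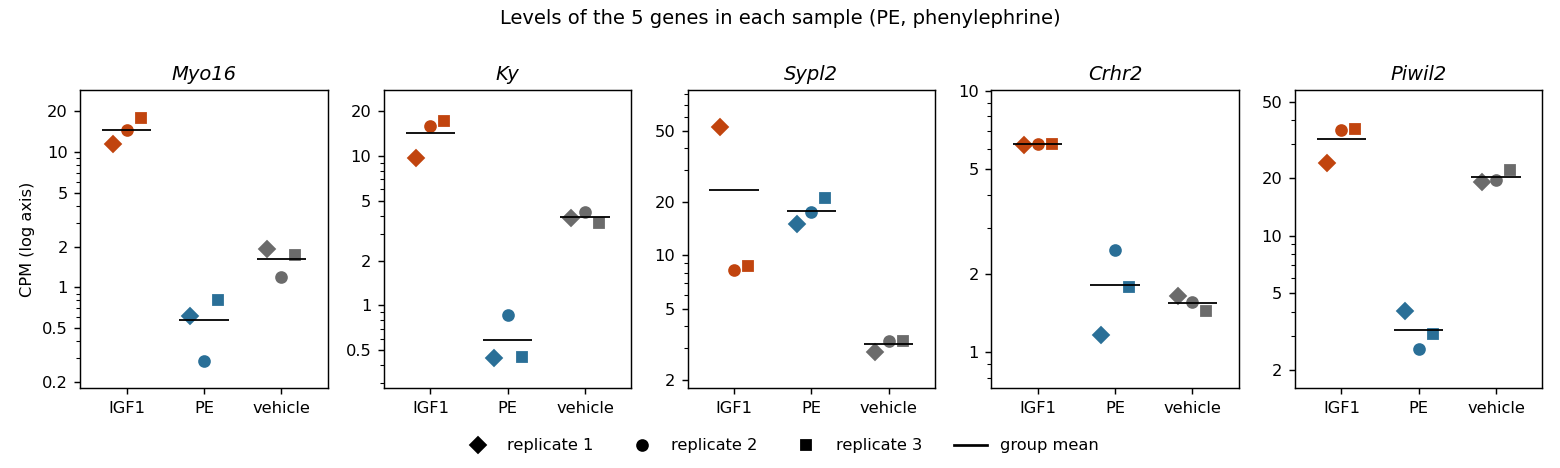
Levels of the 5 genes in CPM on a log axis, with 1 point per sample and the group mean as a line, for IGF1, phenylephrine (PE) and vehicle. Sypl2 lies at 52.7 CPM in IGF1 replicate 1 and at 8.22 and 8.70 CPM in IGF1 replicates 2 and 3, below every phenylephrine sample.

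Ky, the Z-disc protein gene, lay at 9.68, 15.9 and 17.3 CPM in the IGF1 samples, at 0.447, 0.863 and 0.452 CPM in the phenylephrine samples and at 3.86, 4.25 and 3.57 CPM in the vehicle samples. No group overlapped another. The phenylephrine values rested on 13, 27 and 14 reads, against 174 to 191 reads with vehicle. With IGF1 the level was 3.70-fold that with vehicle and 24.2-fold that with phenylephrine, and 4.28-fold and 28.0-fold without IGF1 replicate 1. Ky fell with phenylephrine to 0.587 ± 0.239 CPM, against 3.89 ± 0.344 CPM with vehicle (SD, n = 3 each; log2 fold change -2.71, SE 0.31, edgeR adjusted p = 1.33e-05). Of all genes, 28.9% were called lower and 27.9% higher with phenylephrine than with vehicle, 56.8% in either direction. Of the 5 genes, 3 were called lower, 1 higher and 1 in neither direction. The same 3 lay lower without overlap between the groups, as 34.0% of all genes did, and the same 1 higher without overlap, as 32.6% did.

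Sypl2, the triad protein gene, lay at 52.7, 8.22 and 8.70 CPM in the IGF1 samples, at 14.97, 17.4 and 20.9 CPM in the phenylephrine samples and at 2.87, 3.30 and 3.31 CPM in the vehicle samples. IGF1 replicate 1 was above every other sample, while IGF1 replicates 2 and 3 were below every phenylephrine sample and above every vehicle sample. The mean difference of IGF1 from phenylephrine was log2 0.34 with all samples and log2 -1.07 without IGF1 replicate 1, so the higher level with IGF1 than with phenylephrine for which Sypl2 was picked rested on 1 library. Its difference of IGF1 from vehicle was log2 2.84 with all samples and 1.42 without that library. Sypl2 was 5.63-fold higher with phenylephrine, at 17.8 ± 2.996 CPM, than with vehicle, at 3.16 ± 0.252 CPM (SD, n = 3 each; log2 2.49, SE 0.87, edgeR adjusted p = 0.0484). That SE includes the spread of the IGF1 samples. Without IGF1 replicate 1 the log2 fold change was 2.49 with an SE of 0.11 (adjusted p = 1.02e-21). Leaving out any single sample of vehicle or of phenylephrine ended the call (log2 2.36 to 2.602), as did 3 other alternatives, and over all 17 alternatives the adjusted p ran from 1.02e-21 to 0.126.

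**Figure D2:**
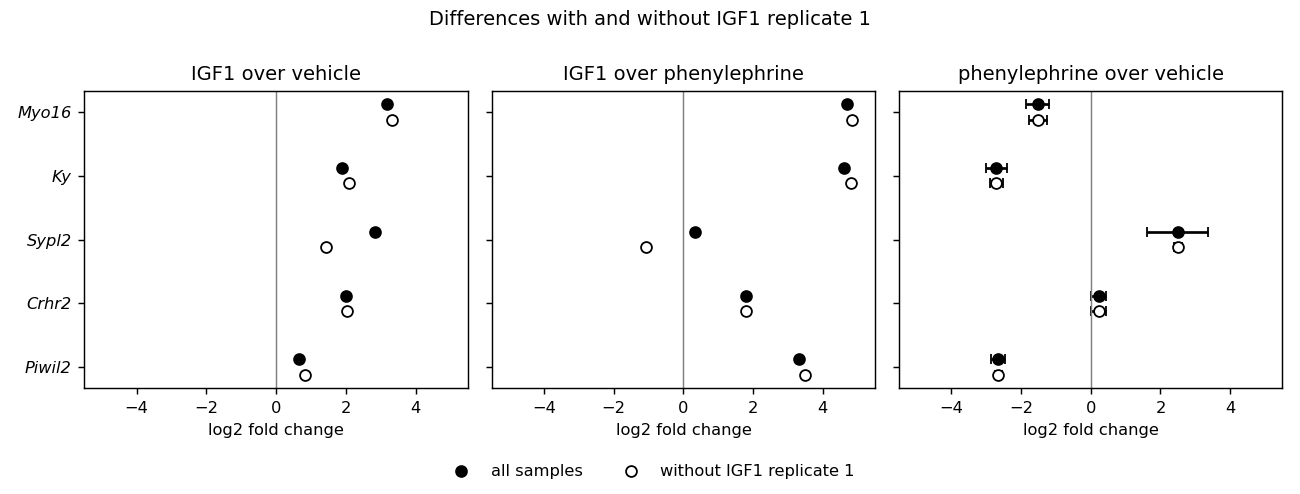
Log2 fold changes of the 5 genes in the 3 comparisons, from all samples (filled) and without IGF1 replicate 1 (open), with bars of 1 SE where a test was made. Sypl2 moves from 0.34 to -1.07 for IGF1 over phenylephrine, and Myo16, Ky, Crhr2 and Piwil2 keep their side of 0 in that comparison.

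Ky and Sypl2, both known from striated muscle, went in opposite directions with phenylephrine. The bases before their RefSeq starts are shown so that these regions can be set side by side. The sequences are from RefSeq on build GRCr8, a different build from that of the counts, and each runs 5′ to 3′ for the 250 bases before the start. RefSeq windows were held for 4 of the 5 genes (Myo16, Ky, Sypl2 and Crhr2), and those of Myo16 and Crhr2 start inside the annotated span of the gene. Capitals mark a motif match.
Ky, chr8:111965612-111965861, plus strand: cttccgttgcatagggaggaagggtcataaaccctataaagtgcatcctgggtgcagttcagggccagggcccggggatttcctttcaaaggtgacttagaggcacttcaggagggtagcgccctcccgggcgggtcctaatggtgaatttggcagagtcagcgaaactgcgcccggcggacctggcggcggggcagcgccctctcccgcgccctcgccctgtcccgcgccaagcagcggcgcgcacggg
Sypl2, chr2:198551940-198552189, minus strand: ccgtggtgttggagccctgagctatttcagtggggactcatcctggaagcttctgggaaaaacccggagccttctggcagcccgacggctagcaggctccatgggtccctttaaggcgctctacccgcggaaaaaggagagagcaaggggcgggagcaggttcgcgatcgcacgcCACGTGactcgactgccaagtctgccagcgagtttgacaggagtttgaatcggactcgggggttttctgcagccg
The motifs searched on both strands were the E-box CANNTG, bound by basic helix-loop-helix factors, the TEAD site CATTCC, the FoxO site GTAAACA, the CCAAT box CCAAT, the MEF2 element and the CArG box of SRF. Where matches overlapped, each was counted. The Sypl2 window held 1 match, an E-box with the letters CACGTG at bases -75 to -70 before the start, and the Ky window held none. An E-box was in 65.5% of the 33465 RefSeq windows of this length. The Myo16 window held 2 matches of the TEAD site, in GGAATG orientation, at bases -247 to -242 and -199 to -194, and the Crhr2 window 1, at bases -90 to -85, and 12.1% of all windows held at least 1. The Crhr2 window also held a CCAAT box, as 34.0% of all windows did. No match of the FoxO site, the MEF2 element or the CArG box was in these 4 windows, and 3.22%, 2.96% and 1.5% of all windows held one. A match is a description of the letters and says nothing of binding, and which starts these cells used was not measured.

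Myo16, the unconventional myosin gene, lay at 11.5, 14.6 and 17.9 CPM in the IGF1 samples, at 0.618, 0.288 and 0.808 CPM in the phenylephrine samples and at 1.92, 1.20 and 1.74 CPM in the vehicle samples. The groups did not overlap. The counts behind these levels were 349 to 853 reads with IGF1, 9 to 25 with phenylephrine and 49 to 95 with vehicle. With IGF1 the level was 8.99-fold that with vehicle and 25.7-fold that with phenylephrine, and 9.91-fold and 28.4-fold without IGF1 replicate 1. Myo16 fell with phenylephrine to 0.571 ± 0.263 CPM, against 1.62 ± 0.377 CPM with vehicle (SD, n = 3 each; log2 -1.52, SE 0.33, edgeR adjusted p = 0.00188).

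Crhr2, the urocortin receptor gene, lay at 6.22, 6.26 and 6.27 CPM in the IGF1 samples, at 1.17, 2.46 and 1.78 CPM in the phenylephrine samples and at 1.64, 1.56 and 1.43 CPM in the vehicle samples. The IGF1 samples were nearly equal, and IGF1 replicate 1 did not stand apart for this gene. With IGF1 the level was 4.04-fold that with vehicle and 3.45-fold that with phenylephrine. Between phenylephrine, at 1.80 ± 0.648 CPM, and vehicle, at 1.54 ± 0.103 CPM, no difference passed the threshold (SD, n = 3 each; log2 0.23, SE 0.22, edgeR adjusted p = 0.392). The sign of that difference turned without phenylephrine replicate 2, at log2 -0.063.

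Piwil2, the PIWI protein gene, lay at 23.9, 35.8 and 35.9 CPM in the IGF1 samples, at 4.05, 2.56 and 3.07 CPM in the phenylephrine samples and at 19.1, 19.5 and 22.2 CPM in the vehicle samples. IGF1 replicate 1 was close above the highest vehicle sample. The difference of IGF1 from vehicle, at 1.58-fold, was the lowest of the 5 genes, and that from phenylephrine was 9.95-fold. Without IGF1 replicate 1 these were 1.77-fold and 11.2-fold. Piwil2 was 6.30-fold lower with phenylephrine, at 3.23 ± 0.760 CPM, than with vehicle, at 20.2 ± 1.66 CPM (SD, n = 3 each; log2 -2.66, SE 0.21, edgeR adjusted p = 4.29e-06). The larger part of the gap between IGF1 and phenylephrine for Piwil2 thus lay below the vehicle level.

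Within the IGF1 group, the members differed in how far replicate 1 stood from replicates 2 and 3. Sypl2 was 6.23-fold higher in replicate 1 than in the mean of the others, rank 10 from the top among 11873 genes. Ky was 1.71-fold, Piwil2 1.498-fold and Myo16 1.42-fold lower in replicate 1, and 2.42%, 4.33% and 5.79% of all genes had a lower ratio than these. Crhr2 differed by a log2 of -0.009. Myo16, Ky and Piwil2, which fell with phenylephrine, were thus lower in IGF1 replicate 1, and Sypl2, which was called higher with phenylephrine, was higher there. The level of Sypl2 in that library was above all 3 phenylephrine samples. Of 10 smooth muscle and pericyte markers, 6 were higher in that library than in both other IGF1 samples and 3, Myh11, Pdgfrb and Notch3, were lower. Their sum was 5530 CPM in that library and 3712 and 3799 CPM in the other IGF1 samples, with 7124 to 7371 CPM in the phenylephrine samples and 3512 to 3584 CPM in the vehicle samples. Most of that gap was Des, which heart muscle cells also express, and without it the sums were 2272, 1690 and 1751 CPM in IGF1 replicates 1, 2 and 3. Of 13 cardiomyocyte markers, 9 were higher and 4 lower in that library than in both other IGF1 samples. Cardiomyocyte markers summed to 82180 CPM in that library and to 59260 and 60700 CPM in the other IGF1 samples. The part of these markers in the differences was not tested.

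**Figure D3:**
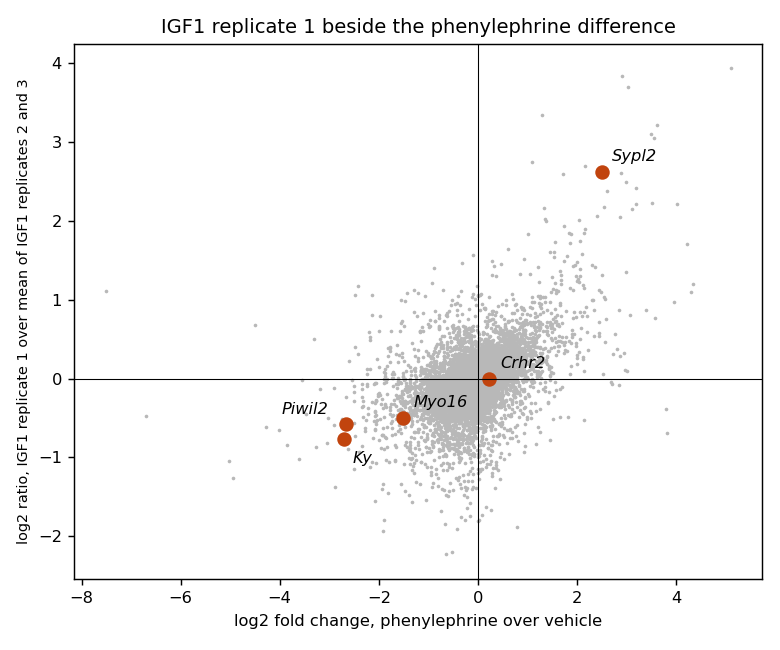
Each grey point is 1 of 11873 genes, with the log2 fold change of phenylephrine over vehicle on the x axis and the log2 ratio of IGF1 replicate 1 over the mean of IGF1 replicates 2 and 3 on the y axis. Sypl2 lies in the upper right, Ky, Piwil2 and Myo16 in the lower left, and Crhr2 near 0 on both.

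Genes with the most similar pattern were found by the root mean square difference of log2(CPM + 0.1), centred on each gene's mean, over the 9 samples, among 10669 genes with a mean of at least 1 CPM. For Ky, Atp2b2, a plasma membrane calcium pump, stood at a difference of 0.62 log2 units and Dlgap3 at 0.65, where the median gene stood at 1.84. For Piwil2 the closest were Efhd1, a calcium-binding protein of mitochondria, at 0.31, Atp2b2 at 0.32 and Dhrs7c, a dehydrogenase of the sarcoplasmic reticulum, at 0.41. Near Myo16 were the mitochondrial creatine kinase Ckmt2 at 0.67 and the helicase Pif1 at 0.71. For Crhr2 the closest were Gstt3 at 0.27, Igsf1 at 0.28 and Pnma2 at 0.28. The median gene stood at 1.439 from Piwil2, 1.935 from Myo16 and 0.939 from Crhr2, so distances are not comparable between members. Ky and Piwil2 differed from each other by 0.66 and Ky and Myo16 by 0.81, while Sypl2 differed from each of Myo16, Ky and Piwil2 by at least 2.24.

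The neighbours of Sypl2 changed with IGF1 replicate 1. Over 9 samples they were the skeletal actin Acta1 at 0.34, the calsequestrin Casq1, which buffers calcium in the skeletal muscle sarcoplasmic reticulum, at 0.34 and the atrial myosin light chain Myl4 at 0.58. Casq1 lay at 329 CPM in IGF1 replicate 1, and at 54.2 and 55.0 CPM in IGF1 replicates 2 and 3. Over the 8 samples without that library the closest was the desaturase Scd1 at 0.13, and the sterol enzyme gene Hmgcs1 stood at 0.22, both of lipid synthesis. The median gene stood at 1.344 from Sypl2 over 9 samples and at 1.084 over these 8. Scd1 lay at 52.2 and 52.4 CPM in IGF1 replicates 2 and 3, at 98.04 to 105 CPM with phenylephrine and at 17.7 to 19.6 CPM with vehicle. The 3 closest of Myo16 and Piwil2 had the same members without that library. For Ky, Adcy1 took the place of Dlgap3, and for Crhr2, Polq that of Igsf1.

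**Figure D4:**
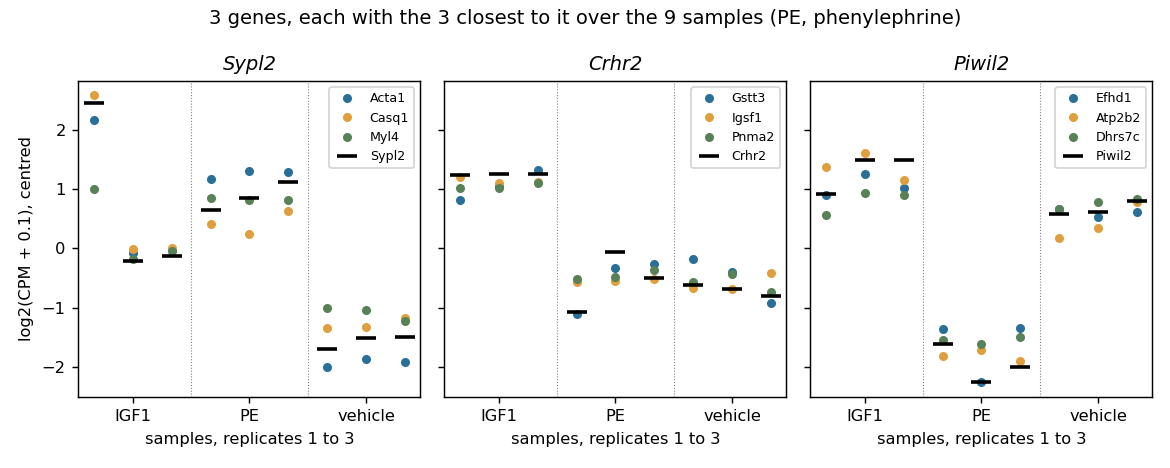
Log2(CPM + 0.1), centred on the gene's mean over 9 samples, for Sypl2, Crhr2 and Piwil2 (black bars) and the 3 genes closest to each (coloured points), by sample, with IGF1, phenylephrine (PE) and vehicle from left to right. Acta1, Casq1 and Myl4 share with Sypl2 the high point in IGF1 replicate 1.

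Lists of genes related to the 5 by function were counted in each comparison, where 24.7% of all genes were called higher and 23.4% lower with IGF1 than with vehicle, 27.1% higher and 27.1% lower with IGF1 than with phenylephrine, and 27.9% higher and 28.9% lower with phenylephrine than with vehicle. A list whose shares are near these does not stand apart from all genes. Scaling by library size only gave other splits, with 36.0% of calls higher in place of 51.3% for IGF1 over vehicle, 67.2% in place of 50.1% for IGF1 over phenylephrine and 23.5% in place of 49.1% for phenylephrine over vehicle. The median of all genes was then log2 -0.085, 0.11 and -0.22, against -0.002, 0.003 and -0.03 in the same order.

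For Ky, the other Z-disc genes and partners went the other way with phenylephrine. Of 21 tested, 17 rose and 1 fell with phenylephrine against vehicle, with a list median of log2 0.85 against -0.03 over all genes. The filamin gene Flnc, whose protein binds Ky in mice, rose 2.36-fold (2607 ± 146 CPM with phenylephrine and 1103 ± 36.1 CPM with vehicle; SD, n = 3 each; edgeR adjusted p = 0.00104). Pdlim5, a Z-disc scaffold, rose 3.24-fold (adjusted p = 2.84e-05), the intermediate filament gene Des 2.73-fold (adjusted p = 4.9e-04), and the protease gene Capn1 fell by 0.32 on the log2 scale (adjusted p = 2.38e-05). Xirp2, an actin-binding repeat protein, rose by log2 3.55 (adjusted p = 0.0176), a call that ended without any 1 of the vehicle samples. With IGF1 against phenylephrine, 15 of the 21 were lower and 1 higher (list median log2 -0.65). The higher one was Capn1 (log2 0.33, adjusted p = 1.84e-05), and the PDZ and LIM protein gene Pdlim3 was lower (log2 -1.13, adjusted p = 0.00453). With IGF1 against vehicle, 3 were higher and 1 lower. The transglutaminase gene Tgm2 was higher (log2 0.66, adjusted p = 0.0105) and Capn2 lower (log2 -0.11, adjusted p = 0.0256), the call of Capn2 ending without vehicle replicate 1 or IGF1 replicate 3. The counts were 6 and 5 without IGF1 replicate 1, and without IGF1 replicate 2 or 3, 6 were higher. Without IGF1 replicate 1, Tgm2 with IGF1 was at log2 0.44 over vehicle and Pdlim3 at log2 -1.44 over phenylephrine. Flnc differed from vehicle by log2 0.33 with IGF1 (adjusted p = 0.183), and lay at 1833 CPM in IGF1 replicate 1 and at 1168 and 1153 CPM in the others.

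For Sypl2, the triad and calcium release genes were more often higher than lower with IGF1. Of 29 tested, 16 were higher and 4 lower with IGF1 than with vehicle (list median log2 0.33), 13 higher and 6 lower with IGF1 than with phenylephrine, and 8 higher and 9 lower with phenylephrine than with vehicle. The last count was 14 lower with scaling by library size only. Hrc, a calcium-binding protein of the sarcoplasmic reticulum, was 1.52-fold higher with IGF1 than with vehicle (edgeR adjusted p = 1.77e-06) and 2.11-fold lower with phenylephrine than with vehicle (adjusted p = 5.93e-09). The triadin gene Trdn, which anchors calsequestrin, went the same way, 1.27-fold higher with IGF1 (adjusted p = 2.54e-05) and 1.61-fold lower with phenylephrine (adjusted p = 2.19e-08). Trim72, a membrane repair protein, was 2.00-fold higher with IGF1 than with vehicle (adjusted p = 3.33e-05), at 292 and 146 CPM. The fast-fibre calcium pump Atp2a1 was higher with IGF1 than with phenylephrine (log2 1.19, adjusted p = 2.79e-04). Among the falls, Mtm1, a lipid phosphatase needed for triads, was lower with IGF1 than with vehicle (log2 -0.44, adjusted p = 3.69e-06). Sarcolipin, Sln, an inhibitor of the calcium pump, was also lower (log2 -0.46, adjusted p = 0.0132), a call that ended without vehicle replicate 1. Fkbp1a, whose protein binds the calcium release channel, rose 2.08-fold with phenylephrine (adjusted p = 3.72e-07) and was 1.52-fold lower with IGF1 than with phenylephrine (adjusted p = 4.02e-05). The junctophilin gene Jph2, which spans the junction, rose 1.84-fold with phenylephrine (adjusted p = 6.5e-04). The cardiac calsequestrin Casq2 was higher with IGF1 than with vehicle (log2 0.60, adjusted p = 0.00343, and log2 0.42 without IGF1 replicate 1). It was also higher with phenylephrine than with vehicle (log2 0.49, adjusted p = 0.00798). Jph1 passed the threshold in neither comparison (log2 0.15 and 0.16, adjusted p = 0.11 and 0.0839). The calcium release channel gene Ryr2 was lower with phenylephrine than with vehicle (log2 -0.16, adjusted p = 0.0164), a call that ended without vehicle replicate 2 or phenylephrine replicate 1. Of the 6 tested relatives of Sypl2 in the synaptophysin family, 1 was higher and 4 lower with phenylephrine than with vehicle. Synpr was 2.69-fold lower (adjusted p = 2.82e-07), and Sypl1, the closest relative by name, differed by log2 0.26 (adjusted p = 8.09e-05), a call that ended with scaling by library size only. With IGF1 against vehicle 1 of the 6 was higher and 3 lower, and with IGF1 against phenylephrine 2 were higher and none lower (1 lower without IGF1 replicate 1). Syngr1 was lower with IGF1 and with phenylephrine than with vehicle (log2 -0.70 and -0.84, adjusted p = 2.15e-05 and 3.42e-06). The 2 genes higher with IGF1 than with phenylephrine included Synpr, at 2.04-fold (adjusted p = 9.13e-06).

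A wider list of genes typical of skeletal muscle, fixed with earlier results known, gave 18 of 25 tested genes higher and 1 lower with IGF1 than with vehicle, with a list median of log2 1.16, and 0.68 without IGF1 replicate 1. With phenylephrine against vehicle, 6 were higher and 8 lower. With IGF1 against phenylephrine, 13 were higher and 1 lower, and without IGF1 replicate 1, 13 of 26 tested were higher and 7 lower. Ckmt2 was at 46.6 ± 1.06 CPM with IGF1, 4.46 ± 0.388 CPM with phenylephrine and 5.99 ± 0.359 CPM with vehicle (SD, n = 3 each). The perinatal myosin Myh8 was 3.31-fold higher with IGF1 (edgeR adjusted p = 1.48e-06) and 3.43-fold lower with phenylephrine (adjusted p = 1.68e-05), each against vehicle. Myoglobin, Mb, was 2.23-fold higher with IGF1 (adjusted p = 4.6e-10) and 2.62-fold lower with phenylephrine (adjusted p = 5.72e-11). Other members were high with phenylephrine or low with IGF1. Acta1 was 9.09-fold higher with phenylephrine than with vehicle (adjusted p = 0.00707) and 8.13-fold higher with IGF1 than with vehicle (adjusted p = 0.0105), the second at log2 1.88 in place of 3.02 without IGF1 replicate 1. Of the same list, Mybpc2, a myosin-binding protein of fast fibres, was 3.89-fold higher with phenylephrine than with vehicle (adjusted p = 0.0075). Myh2, a fast myosin, was 1.81-fold lower with IGF1 than with vehicle (adjusted p = 0.0133), a call that ended without IGF1 replicate 2. Its difference was log2 -1.245 in place of -0.854 without IGF1 replicate 1. The tropomyosin Tpm3 was lower with IGF1 than with phenylephrine (log2 -0.31, adjusted p = 1.23e-04). Casq1 was 6.43-fold higher with IGF1 than with vehicle (adjusted p = 0.0321), and log2 1.28 in place of 2.69 without IGF1 replicate 1 (adjusted p = 5.25e-05). Leaving out any single sample of vehicle or of phenylephrine ended that call too, with adjusted p over the alternatives between 5.25e-05 and 0.0964.

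**Figure D5:**
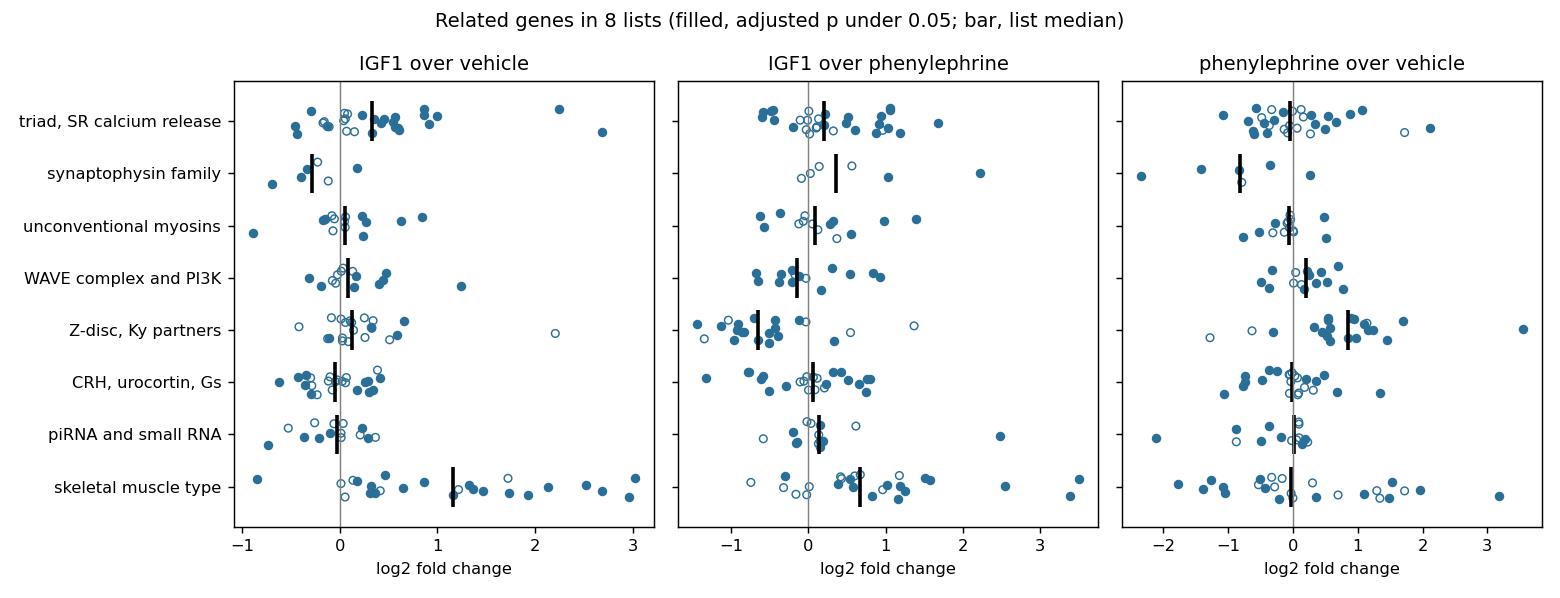
Log2 fold changes of the tested genes of 8 lists in the 3 comparisons, filled where the edgeR adjusted p was under 0.05, with the list median as a bar. The Z-disc list lies to the right for phenylephrine over vehicle, with 17 of 21 called higher, and the skeletal muscle type list to the right for IGF1 over vehicle, with 18 of 25 called higher.

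For Myo16, other unconventional myosins showed counts in both directions. Of 14 tested, 5 were higher and 3 lower with IGF1 than with vehicle, 5 and 3 with IGF1 against phenylephrine, and 2 and 3 with phenylephrine against vehicle, the last 9 lower with scaling by library size only. Myo5b, a motor of vesicle transport, was 1.55-fold higher with IGF1 (edgeR adjusted p = 0.00284) and 1.71-fold lower with phenylephrine (adjusted p = 0.00111), each against vehicle, and Myo7a was 1.79-fold higher with IGF1 (adjusted p = 8.78e-04). Myo1c, a membrane-bound motor, was 1.42-fold higher with phenylephrine than with vehicle (adjusted p = 2.11e-07). Myo1f was lower than with vehicle in both treatments (log2 -0.89 with IGF1 and -0.53 with phenylephrine, adjusted p = 1.71e-05 and 0.00126), and Myo1e was lower with IGF1 (log2 -0.18, adjusted p = 0.0115). Myo1d was higher with phenylephrine than with vehicle (log2 0.47, adjusted p = 2.54e-06). Of 14 genes of the WAVE complex and PI3K, 6 were higher and 2 lower with IGF1 than with vehicle, 5 and 7 with IGF1 against phenylephrine, and 8 and 3 with phenylephrine against vehicle. With scaling by library size only, these last counts were 4 and 5, and 4 were lower with IGF1 than with phenylephrine. The PI3K regulatory subunit Pik3r1 was 1.36-fold higher with IGF1 (adjusted p = 5.65e-05) and 1.40-fold lower with phenylephrine (adjusted p = 2.28e-05). Wasf1, the WAVE1 gene, was 1.38-fold higher with IGF1 (adjusted p = 1.73e-04) and 1.29-fold lower with phenylephrine (adjusted p = 0.00146). Pik3r3 was higher with both, 2.36-fold with IGF1 (adjusted p = 1.32e-08) and 1.62-fold with phenylephrine (adjusted p = 4.28e-06). The WAVE complex subunit Cyfip2 and the catalytic subunit Pik3ca were lower with IGF1 than with vehicle (log2 -0.31 and -0.19, adjusted p = 0.00856 and 0.00149), and Pik3cb was higher with phenylephrine than with vehicle (log2 0.78, adjusted p = 8.63e-06). Cyfip1, the relative of Cyfip2, differed from vehicle by log2 -0.076 with IGF1 and 0.041 with phenylephrine (adjusted p = 0.115 and 0.385).

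For Crhr2, its ligands were low or scarce. Crh, a gene of the same system, passed the filter with 81, 53 and 73 reads over the IGF1, phenylephrine and vehicle samples. Ucn2 had 2 reads over all 9 samples, Ucn3 11 reads and the binding protein Crhbp 3 reads, and the receptor Crhr1 had 14, so a difference in these genes was not detectable at this depth. The ligand gene Ucn lay at 1.75 ± 0.228 CPM with IGF1, 3.04 ± 0.409 CPM with phenylephrine and 1.89 ± 0.4996 CPM with vehicle (SD, n = 3 each). Its rise with phenylephrine over vehicle (log2 0.69, edgeR adjusted p = 0.0138) ended with scaling by library size only and without vehicle replicate 3 or phenylephrine replicate 2 (adjusted p up to 0.0748, and as low as 0.00354, over the alternatives). Of 23 tested genes of this system and of Gs signalling, 6 were higher and 5 lower with IGF1 than with vehicle, 8 and 7 with IGF1 against phenylephrine, and 5 and 7 with phenylephrine against vehicle. These last counts were 2 and 13 with scaling by library size only, and 3 were higher without phenylephrine replicate 2. The catalytic subunit of protein kinase A, Prkaca, was 1.33-fold higher with IGF1 than with vehicle (adjusted p = 6.18e-06), and the phosphodiesterase Pde3a, which breaks down cyclic AMP, 1.54-fold lower (adjusted p = 3.98e-07). The regulatory subunit Prkar2a was higher with IGF1 (log2 0.34, adjusted p = 3.63e-05), the cyclase Adcy4 was lower (log2 -0.43, adjusted p = 0.00375), and the phosphodiesterase Pde4a was higher with IGF1 than with phenylephrine (log2 0.80, adjusted p = 2.16e-07). The adenylyl cyclase Adcy5 was 2.09-fold lower with phenylephrine (adjusted p = 2.01e-08), the receptor Adrb1 1.71-fold lower (adjusted p = 2.7e-06) and the phosphodiesterase Pde4b 2.54-fold higher (adjusted p = 5.72e-11), each against vehicle.

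For Piwil2, most other genes of the piRNA pathway had few reads. Piwil1 had 0 reads, Piwil4 43, Mael 25, Asz1 12 and Gtsf1 6 over all 9 samples. Of 14 tested genes of the piRNA and small RNA lists, 2 were higher and 4 lower with IGF1 than with vehicle, 4 and 3 with IGF1 against phenylephrine, and 2 and 5 with phenylephrine against vehicle. Without IGF1 replicate 3 or phenylephrine replicate 3, 2 were higher with IGF1 than with phenylephrine, and the count higher with phenylephrine than with vehicle was 1 to 4 when a sample was left out, with 4 without IGF1 replicate 1. Tdrkh, a Tudor protein of the piRNA pathway, was 1.29-fold lower with IGF1 (edgeR adjusted p = 0.00564) and 1.41-fold lower with phenylephrine (adjusted p = 5.87e-04), and the Argonaute Ago4 was 1.66-fold and 1.85-fold lower (adjusted p = 3.33e-04 and 6.33e-05), each against vehicle. In the comparisons given here, Ago2, Tarbp2, Drosha, Ago1, Xpo5, Tdrd7 and Dgcr8 moved by less. Ago2 was higher with IGF1 than with vehicle (log2 0.29, adjusted p = 6.23e-04), and so was Tarbp2 (log2 0.23, adjusted p = 0.0172). The call of Tarbp2 ended with scaling by library size only and without vehicle replicate 2 or 3 or IGF1 replicate 1. With IGF1 against phenylephrine, Drosha and Ago1 were higher (log2 0.19 and 0.15, adjusted p = 0.00247 and 0.017) and Xpo5 and Tdrd7 lower (log2 -0.19 and -0.15, adjusted p = 9.01e-04 and 0.0346). The calls of Ago1 and Tdrd7 ended when some single samples were left out, and those of Xpo5 and Tdrd7 with scaling by library size only. Dgcr8 was higher with phenylephrine than with vehicle (log2 0.18, adjusted p = 0.00284), with the sign turned under scaling by library size only, as for Ago2 in that comparison (log2 0.14, adjusted p = 0.0471). That call of Ago2 also ended without a filter, with a stricter filter, with DESeq2 and when some single samples were left out. Tdrd1, another Tudor protein of that pathway, named after its values were seen, had 55, 7 and 48 reads over the IGF1, phenylephrine and vehicle samples, and was lower with phenylephrine than with vehicle (log2 -2.11, adjusted p = 0.0115). Defining germ cell markers were near 0, with 1, 0 and 3 reads of Ddx4 and 0, 1 and 1 of Dazl over the IGF1, phenylephrine and vehicle samples. The summed level of the 8 germ cell markers measured was 10.99 to 13.2 CPM with IGF1, 7.04 to 8.24 CPM with phenylephrine and 12.4 to 14.8 CPM with vehicle. All 3 that were tested, Tdrd1, Sycp3 and Zbtb16, were called lower with phenylephrine than with vehicle, as 28.9% of all genes were. With IGF1 against vehicle, Zbtb16 was lower (log2 -1.09, adjusted p = 2.66e-05). Sycp3 was higher (log2 0.33, adjusted p = 0.0422), a call that ended with scaling by library size only and when some single samples were left out. The part of these markers in the Piwil2 result was not tested.

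Cell type markers moved as follows. Against vehicle, 24.7% of all genes were called higher and 23.4% lower with IGF1, and 27.9% higher and 28.9% lower with phenylephrine. Counts near these shares do not set a marker list apart from all genes. With IGF1 against vehicle, 0 of 9 endothelial markers were higher and 5 lower, summing to 35.8 to 42.0 CPM with IGF1, 63.6 to 76.3 CPM with phenylephrine and 79.4 to 87.0 CPM with vehicle. Of 10 smooth muscle and pericyte markers, 5 were higher and 2 lower with phenylephrine than with vehicle. Of 9 fibroblast markers, 3 were higher and 2 lower with IGF1, and 1 and 4 with phenylephrine, each against vehicle. Of 7 macrophage and leukocyte markers 0 were higher and 1 lower in each of these comparisons. Of 8 Schwann cell and neural markers, 0 were higher and 1 lower with IGF1, and 1 and 1 with phenylephrine. Of 13 cardiomyocyte markers, 9 were higher and 1 lower with IGF1, and 8 and 4 with phenylephrine. Of the 3 tested skeletal lineage markers, 1 was lower with IGF1, and the list summed to 5.55 to 8.85 CPM with IGF1, 5.32 to 6.14 CPM with phenylephrine and 6.47 to 7.36 CPM with vehicle.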

How the data were processed

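RNA sequencing libraries of primary ventricular myocytes from newborn rats were made with a NuGEN Ovation kit and read on an Illumina NovaSeq instrument, per the labels' protocols. The authors deposited counts of reads for each gene symbol, not normalized. STAR, HTSeq and DESeq are named with the rn5 build in the submitters' processing notes, without versions or roles, and the sources used here do not say whether strand was used in counting. Total counts were 31274396 to 48505265 per sample. On the TMM-normalized library sizes, a level of 1 CPM rested on 29.1 to 51.6 reads. Groups and replicate numbers came from the sample titles.

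Low counts were filtered with filterByExpr in edgeR (minimum count 10, minimum total count 15), which left 11873 of 17327 rows, and libraries were scaled with TMM factors. A robust quasi-likelihood model of group was fitted over all 9 samples with edgeR 4.0.16 in R 4.3.3, and p-values were adjusted over all genes tested by the Benjamini-Hochberg method, with a threshold of 0.05. The procedure was first run on simulated counts in which no library stood apart. That run therefore does not cover the effect of IGF1 replicate 1 on the calls. Each SE was obtained from the fold change and its F statistic. The alternatives were DESeq2 1.42.0, voom in limma 3.58.1, other scaling, other filters, the 2 groups alone, a replicate block and leaving out each sample.

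The 5 genes, 8 lists of related genes and 8 lists of cell type markers were chosen with earlier results of these data known. From each list were named up to 2 rises and 2 falls past the threshold in each comparison with a group mean of at least 1 CPM, and a few partners fixed by name. For each of the 5 genes were named the genes among the 3 closest to it over the samples, some of which are not reported here. Genes named beyond this are said to be so. The labels do not say whether samples of a group were separate cultures, and p-values then reflect only how far these samples vary, possibly for technical reasons.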

Additional observations from a re-analysis of the deposited data

How the results depend on the processing

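Over the 17 alternatives, the log2 differences of Myo16, Ky and Piwil2 kept their direction in all 3 comparisons and their calls for phenylephrine over vehicle, with adjusted p of at most 0.0251, 0.00394 and 1.88e-04. Crhr2 kept its direction in both comparisons with IGF1, and for phenylephrine over vehicle it ran from log2 -0.063 to 0.457 when a sample was left out. The difference of Sypl2 for IGF1 over phenylephrine turned to log2 -0.03 with the replicate block and -0.385 with limma-voom, and ran from -1.072 to 0.759 when a sample was left out. The rise of Sypl2 with phenylephrine missed the threshold without a filter on low counts (log2 2.493, adjusted p = 0.0594), with the replicate block (2.564, 0.0708), with limma-voom (2.485, 0.0916) and when single vehicle or phenylephrine samples were left out (2.359 to 2.602). The cause of these changes was not tested. Scaling by library size only gave 2132 genes lower with IGF1 than with phenylephrine, against 3215, and 1751 higher and 5696 lower with phenylephrine than with vehicle, against 3310 and 3429. Of the counts over a list under an alternative, 63 moved by over 1.5 times and 753 did not.

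Same-numbered samples of different groups deviated from their group means with correlations of -0.165 to 0.0558 over 11873 genes. With 3 samples per group, these correlations cannot settle whether same-numbered samples shared a litter or day, and the labels do not say. The replicate block was therefore run as an alternative and not as the main model. The phenylephrine levels of Myo16 and Ky rest on 9 to 27 reads per sample, which limits their precision.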
